A study of Mus musculus with 7 samples.

Results

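The 8 genes described here are Gata4, Gata6, Sox7, Sox17, Foxa2, Foxq1, Hnf4a and Pdgfra, which were taken by symbol from the 54838 genes of a deposited table of raw counts. Of these, 7 encode transcription factors, and Pdgfra encodes a receptor tyrosine kinase. All 8 had counts in all 7 libraries and all 8 passed the filter on low counts. RNA was measured in 3 colonies of mouse induced pluripotent stem cells titled M, 3 colonies titled GC, and 1 culture of V6.5, a mouse embryonic stem cell line. The colonies came from splenic germinal center B cells of male mice at day 9 of SRBC, an immunogen. The bulk source was sorted as B220+ CD38- Fas+ cells (GC colonies), and the other source was in addition gated on an endogenous Myc-GFP reporter that marks activation by T follicular helper cells. The titles do not spell out M, which is read here as the Myc-GFP source. Cells of both sources spent 6 days on mouse embryonic fibroblasts with cytokines, 10 days with doxycycline to drive reprogramming and 4 days without it. Each library is 1 picked colony, a clone, which went through 1 passage on gelatin and a pre-plating step of 45 min against carried-over fibroblasts. All 7 cultures, V6.5 included, were kept in KO-DMEM with FBS and LIF. The labels state neither which mouse each colony came from nor whether V6.5 had been kept on fibroblasts, so a p-value measures only the spread among these colonies.

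Primitive endoderm is the extraembryonic layer that forms beside the pluripotent epiblast in the late blastocyst and later gives rise to parietal and visceral endoderm. FGF4 from epiblast cells acts through FGF receptors and the MAP kinase cascade to turn on Gata6, and Gata6, Gata4, Sox17 and Sox7 then act in the primitive endoderm program, while Nanog opposes it. Mouse embryonic stem cells kept in serum and LIF are known to hold a minority of cells with primitive endoderm RNA.

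The libraries held 31505623 to 33173123 counts in M colonies, 31612440 to 35728921 in GC colonies and 31139508 in V6.5. The 3 counts that a count of 0 allows were worth 0.0840 to 0.0963 CPM, the unit of counts over library size, for counting error only. The 4 Y-linked genes Ddx3y, Eif2s3y, Kdm5d and Uty together had 4292, 0 and 0 counts in M colonies 1, 2 and 3, against 4699, 3732 and 4293 in GC colonies and 740 in V6.5. M colonies 2 and 3 thus stand apart from the other colonies, although all donors are labelled male, and the calls are also given below without both. Levels below are CPM scaled by TMM, a normalization for library composition, and a ± after a level is the SD over colonies, while a ± after a log2 change is its SE.

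RNA of all 8 genes was higher in each of the 6 colonies than in V6.5. Among the 20502 genes tested over 7 libraries, 25.7% had all 6 colonies above V6.5. By edgeR's quasi-likelihood test with a Benjamini-Hochberg adjusted p under 0.05, 16.3% of them passed, 8.76% higher and 7.56% lower in colonies. All 8 members rose by that test, by 2.99-fold (Hnf4a) to 7.07-fold (Sox17). The members, and the lists used below, were chosen with earlier results of these data known. Their counts beside the shares of all genes are thus a description and no test of a set. All 8 means were higher in M colonies than in GC colonies, but only Foxq1, at 2.22-fold, passed the threshold, and the other 7 had folds of 1.29 to 1.70 and did not pass. Of the 18166 genes tested over the 6 colonies, 3.97% passed, 1.7% higher and 2.27% lower in M colonies. The median log2 change of the 8 genes was 2.23 between colonies and V6.5 and 0.64 between M and GC colonies, beside medians over all tested genes of 0.02 and 0.00. In bulk cultures, more cells with a given RNA and more of that RNA per cell cannot be told apart.

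**Figure D1:**
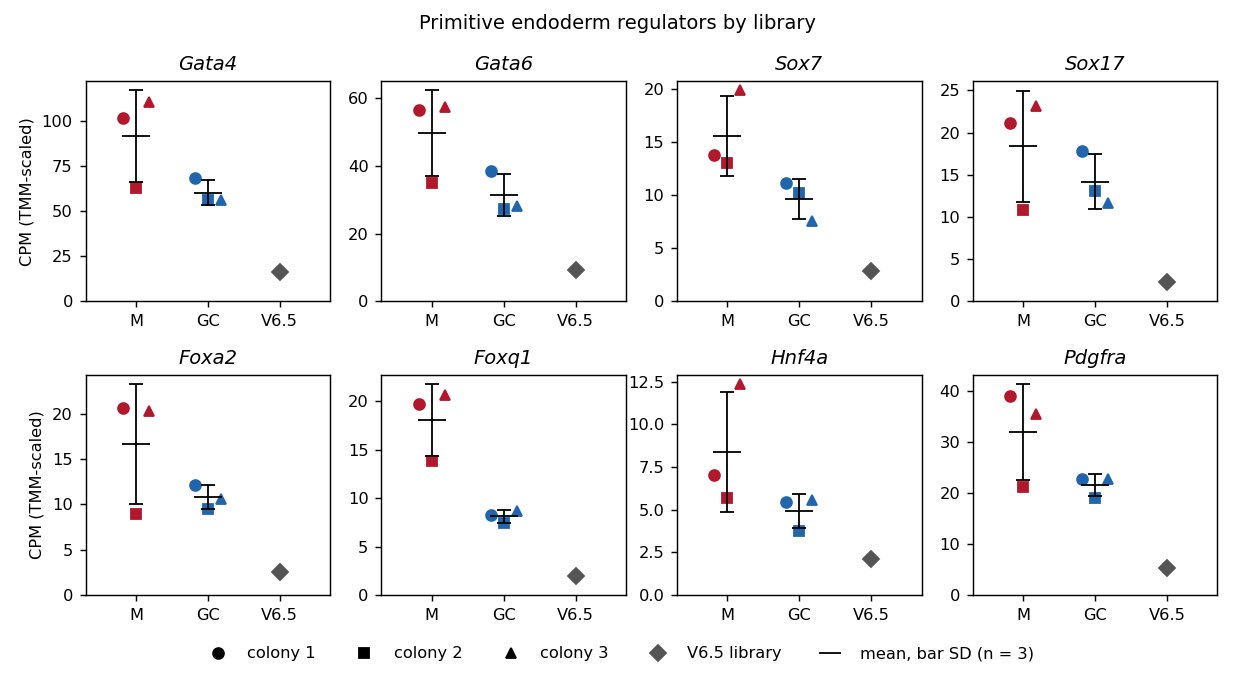
Level of each of the 8 genes by library (TMM-scaled CPM, linear axis from 0, own scale in each panel). Points are libraries, marked by colony number, with M colonies, GC colonies and V6.5 from left to right, and dashes with bars are the mean and SD of 3 colonies. V6.5 lies below every colony for all 8 genes, and M and GC points separate without overlap for Sox7, Foxq1 and Hnf4a.

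Gata4 (ENSMUSG00000021944, GRCm38 chr14:63198922-63271692, minus strand) encodes a zinc finger factor that can drive stem cells into primitive endoderm when it is expressed from outside. Its level was 102, 62.9 and 111 CPM in M colonies 1, 2 and 3, against 68.6, 56.3 and 56.5 CPM in GC colonies and 16.5 CPM in V6.5. M colony 2 lay between GC colonies 1 and 2, so the colony groups overlapped, and V6.5 was below all of them. Gata4 averaged 92.0 ± 25.5 CPM in M colonies and 60.4 ± 7.03 CPM in GC colonies (SD, n = 3 each). The difference was 0.60 ± 0.16 on the log2 scale (SE) and did not pass (edgeR adjusted p = 0.0621), while the rise in colonies over V6.5 was 2.18 ± 0.26 (edgeR adjusted p = 9.31e-05).

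Gata6 (ENSMUSG00000005836, chr18:11052064-11085635, plus strand) encodes the related factor at the top of the program. It had 56.6, 34.9 and 57.5 CPM in M colonies 1, 2 and 3, against 38.6, 27.3 and 28.1 CPM in GC colonies and 9.32 CPM in V6.5. As with Gata4, M colony 2 stood below GC colony 1 and above GC colonies 2 and 3. The log2 difference between M and GC colonies was 0.66 ± 0.17 and did not pass (edgeR adjusted p = 0.0577). Against V6.5 the rise was 2.08 ± 0.28 (edgeR adjusted p = 2.29e-04). An antisense gene that overlaps Gata6 exons, 1010001N08Rik, had 34 to 92 counts in M colonies, 12 to 38 in GC colonies and 6 in V6.5, beside 1167 to 1851 Gata6 counts in M colonies, 897 to 1392 in GC colonies and 278 in V6.5. Reads of this pair cannot be told apart, because the sources name no strand setting for the counting.

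Sox17 (ENSMUSG00000025902, chr1:4490931-4497354, minus strand) and Sox7 (ENSMUSG00000063060, chr14:63943673-63950732, plus strand) encode SRY-box factors of the same subfamily that act in primitive endoderm. Sox17 had 21.2, 10.8 and 23.1 CPM in M colonies 1, 2 and 3, against 17.9, 13.0 and 11.6 CPM in GC colonies and 2.28 CPM in V6.5. M colony 2 was the lowest of the 6 colonies for Sox17. The difference between M and GC colonies was 0.37 ± 0.24 on the log2 scale (edgeR adjusted p = 0.492), while the rise over V6.5, 2.82 ± 0.42 (edgeR adjusted p = 4.66e-04), had the highest fitted fold of the 8 genes. Sox7 had 13.8, 13.0 and 19.9 CPM in M colonies, against 11.2, 10.2 and 7.53 CPM in GC colonies and 2.81 CPM in V6.5. Here all 3 M colonies were above all 3 GC colonies, yet the log2 difference of 0.68 ± 0.18 did not pass (edgeR adjusted p = 0.0600). Against V6.5, Sox7 rose by 2.12 ± 0.31 on the log2 scale (edgeR adjusted p = 3.68e-04). Sox7 lies 672 kb from Gata4 on chromosome 14.

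Foxa2 (ENSMUSG00000037025, chr2:148042877-148046969, minus strand) encodes a pioneer forkhead factor of extraembryonic and definitive endoderm. It had 20.6, 8.98 and 20.3 CPM in M colonies 1, 2 and 3, against 12.2, 9.54 and 10.6 CPM in GC colonies and 2.55 CPM in V6.5. Again M colony 2 was the lowest colony of all 6, while M colonies 1 and 3 were above every GC colony. The log2 difference between M and GC colonies was 0.62 ± 0.24 (edgeR adjusted p = 0.213), and Foxa2 rose over V6.5 by 2.39 ± 0.41 (edgeR adjusted p = 0.00143).

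Foxq1 (ENSMUSG00000038415, chr13:31556134-31560976, plus strand) encodes another forkhead factor, known in mice from hair and stomach surface cells. It had 19.7, 13.8 and 20.6 CPM in M colonies 1, 2 and 3, against 8.27, 7.41 and 8.69 CPM in GC colonies and 2.01 CPM in V6.5. The 3 M colonies lay above the 3 GC colonies with a gap, and V6.5 lay below both groups. Foxq1 averaged 18.0 ± 3.70 CPM in M colonies and 8.12 ± 0.655 CPM in GC colonies (SD, n = 3 each), and the rise was 1.15 ± 0.16 on the log2 scale (edgeR adjusted p = 0.00139). Against V6.5, Foxq1 rose by 2.59 ± 0.28 on the log2 scale over all colonies (edgeR adjusted p = 4.09e-05). Across 13 other settings and left-out libraries the log2 difference between M and GC colonies stayed between 1.04 and 1.31, with an adjusted p of at most 0.0127.

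Hnf4a (ENSMUSG00000017950, chr2:163506808-163572910, plus strand) encodes a nuclear receptor that acts in visceral endoderm and liver. It had 7.06, 5.69 and 12.4 CPM in M colonies 1, 2 and 3, against 5.44, 3.75 and 5.58 CPM in GC colonies and 2.14 CPM in V6.5. M colonies were all above GC colonies, with M colony 2 close above GC colony 3. The log2 difference was 0.76 ± 0.26 and did not pass (edgeR adjusted p = 0.149). Hnf4a rose less over V6.5 than the other members did in fitted fold, by 1.58 ± 0.41 on the log2 scale (edgeR adjusted p = 0.0182), and it was the member that did not pass when GC colonies alone were set against V6.5.

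Pdgfra (ENSMUSG00000029231, chr5:75152292-75198215, plus strand) encodes the PDGF receptor alpha chain, a surface marker of primitive endoderm that fibroblasts also carry. It had 39.0, 21.2 and 35.6 CPM in M colonies 1, 2 and 3, against 22.7, 19.1 and 22.8 CPM in GC colonies and 5.36 CPM in V6.5. M colony 2 lay between the GC colonies, and M colonies 1 and 3 lay above them. The log2 difference between M and GC colonies was 0.56 ± 0.18 (edgeR adjusted p = 0.110), and Pdgfra rose over V6.5 by 2.29 ± 0.30 (edgeR adjusted p = 1.72e-04).

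Start site windows of RefSeq on GRCm38.p6 were at hand for 3 of the 8 genes, in 6 windows of 250 bases before an annotated start. The 3 windows below each lie before the outermost RefSeq start of their gene. They are shown because 2 of the 8 genes encode GATA factors, whose motif can be searched before these starts. Each is printed 5′ to 3′ on the strand of its gene, for Hnf4a (chr2:163506607-163506856, plus strand), Foxa2 (chr2:148046970-148047219, minus strand) and Pdgfra (chr5:75152001-75152250, plus strand), with the letters GATAA in capitals.
Hnf4a: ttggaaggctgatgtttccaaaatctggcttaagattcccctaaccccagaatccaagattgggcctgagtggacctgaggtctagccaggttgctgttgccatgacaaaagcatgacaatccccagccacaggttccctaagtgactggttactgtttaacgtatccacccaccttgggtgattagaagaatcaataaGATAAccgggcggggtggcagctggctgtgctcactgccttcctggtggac
Foxa2: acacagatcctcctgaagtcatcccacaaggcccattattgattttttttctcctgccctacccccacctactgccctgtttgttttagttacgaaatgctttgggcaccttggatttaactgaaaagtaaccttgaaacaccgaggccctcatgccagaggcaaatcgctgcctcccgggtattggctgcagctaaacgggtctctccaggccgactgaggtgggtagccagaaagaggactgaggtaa
Pdgfra: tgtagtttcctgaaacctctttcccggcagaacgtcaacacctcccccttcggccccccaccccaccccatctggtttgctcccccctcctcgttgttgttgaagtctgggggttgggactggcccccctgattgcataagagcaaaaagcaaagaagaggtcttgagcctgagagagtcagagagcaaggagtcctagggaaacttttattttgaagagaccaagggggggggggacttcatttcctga
The letters GATAA, searched on both strands, begin 51 bases before the RefSeq start of Hnf4a. The GENCODE start of Hnf4a given above, 163506808, lies inside that window, so the distance holds for the RefSeq start only. The letters are not in the Foxa2 and Pdgfra windows shown. They are also in the window before the third Foxa2 start (chr2:148045465-148045714), which gives 2 of 6 windows, against 22.6% of 32851 RefSeq windows of the same length. A SOX motif (ACAATG), a FOX motif (TGTTTAC) and an HNF4 motif (AAGTCCA), each searched on both strands, were in none of the 6 windows and in 10.7%, 3.17% and 3.36% of all windows. These are matches of letters only.

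The comparison of M with GC colonies asks whether the sorted state of the source B cell goes with a difference in the reprogrammed colonies. Of the 8 genes, 7 had an unadjusted p under 0.05, all but Sox17, where 7.97% of tested genes were higher in M colonies at that p, and 3 had all M colonies above all GC colonies, namely Sox7, Foxq1 and Hnf4a, against 10.1% of tested genes. M colony 2 was the lowest M colony for all 8 genes, as it was for 32.2% of tested genes, and lay below the highest GC colony for 5 of the 8, while M colonies 1 and 3 were above every GC colony for all 8. The coefficient of variation was larger among M colonies (20.5% to 42.2%) than among GC colonies (8.06% to 23.2%) for each of the 8 genes, as it was for 50.9% of tested genes, and for all 8 the same library, M colony 2, was the low one. Leaving out M colony 2, the lowest M colony for all 8 genes, raises each M mean by construction. Without it, 6 of the 8 genes rose in M colonies, all but Sox17 and Hnf4a, where 1.82% of tested genes rose. Without GC colony 1 Gata6 rose beside Foxq1, where 0.857% of tested genes rose. Without M colony 1, M colony 3, GC colony 2 or GC colony 3, Foxq1 alone rose, where 0.47% to 2.23% of tested genes rose. Without M colonies 2 and 3, the libraries with 0 Y-linked counts, 5 rose (Gata4, Gata6, Foxa2, Foxq1 and Pdgfra), where 0.809% of tested genes rose, with the lone M colony assumed to vary like the GC colonies.

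**Figure D2:**
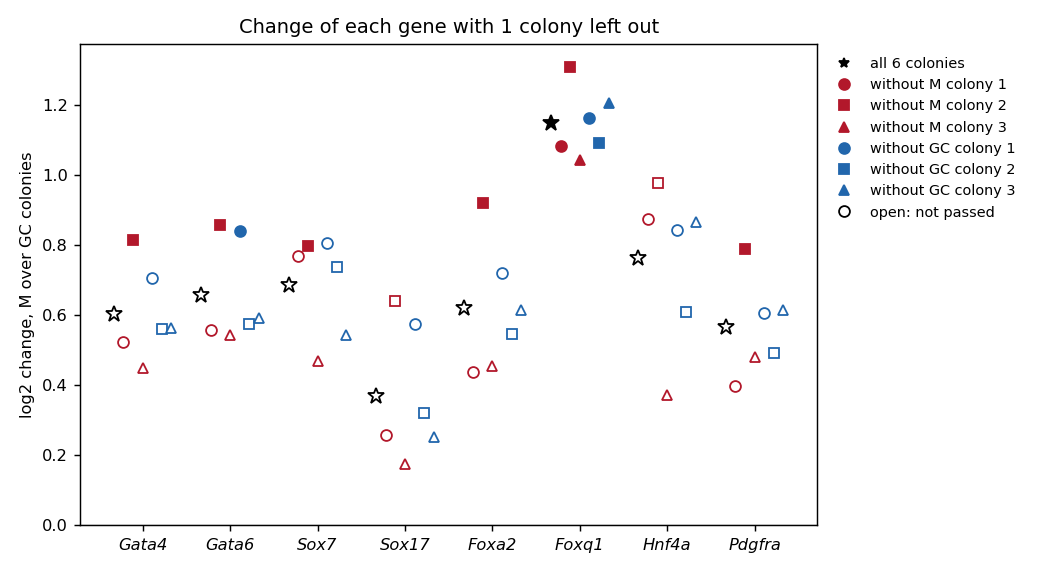
Log2 change of M over GC colonies (vertical axis) for each of the 8 genes with all 6 colonies (stars) and with 1 colony left out. Filled points have an edgeR adjusted p under 0.05, and open points do not. Foxq1 is filled in every case, and 6 genes are filled without M colony 2.

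The comparisons with V6.5 ask how far the colonies stand from an embryonic stem cell line. They rest on 1 V6.5 library, which was assumed to vary like the colonies, and they share it. With M colonies alone set against V6.5, 8 of 8 genes rose, where 16.2% of tested genes passed, 8.84% higher and 7.37% lower, with folds of 3.90 (Hnf4a) to 8.95 (Foxq1). With GC colonies alone, 7 of 8 rose, where 13% of tested genes passed, 7.53% higher and 5.51% lower. Their folds ran from 3.37 (Gata6) to 6.22 (Sox17) among those 7, and Hnf4a had a fold of 2.29 that did not pass (edgeR adjusted p = 0.0833). With M colonies 2 and 3 left out, 8 of 8 rose in GC colonies against V6.5, where 7.68% of tested genes rose. M colony 1 against V6.5 is then 1 library against 1 with all spread taken from the GC colonies, and 8 of 8 rose, where 6.91% of tested genes rose. The lowest colony was 1.75 times V6.5 for Hnf4a and 4.76 times V6.5 for Sox17.

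**Figure D3:**
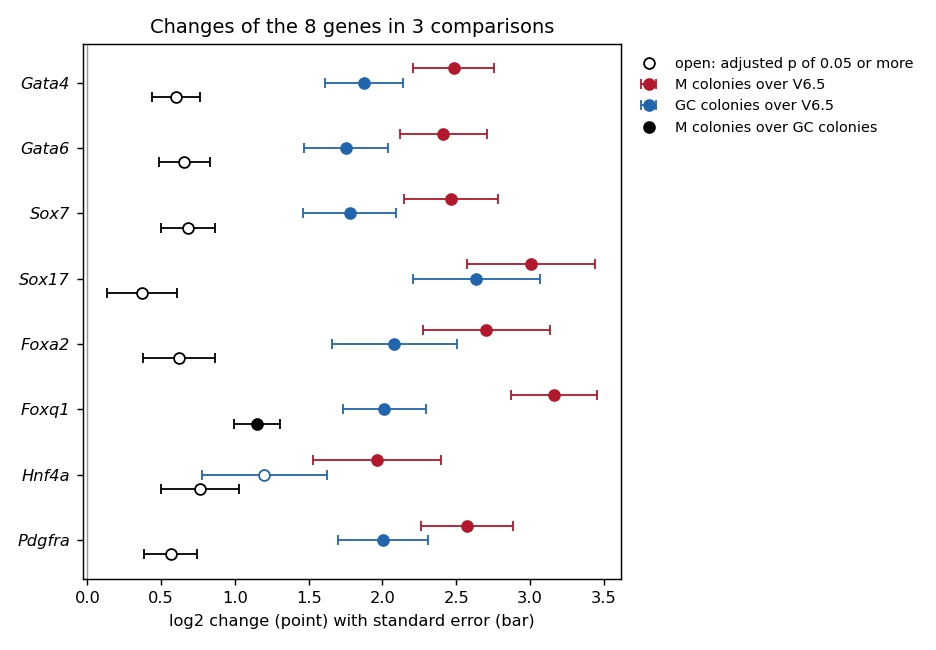
Log2 change (points) with its standard error (bars) of each of the 8 genes for M colonies over V6.5, GC colonies over V6.5 and M over GC colonies. Filled points have an edgeR adjusted p under 0.05. All 8 genes are filled for M colonies over V6.5, 7 for GC colonies over V6.5, and Foxq1 alone for M over GC colonies.

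Divided by the length of the annotated exons, the levels can be set beside each other. Gata4 was the highest in all 3 groups, at 23.6 ± 6.53 CPM per kb in M colonies, 15.5 ± 1.80 CPM per kb in GC colonies (SD, n = 3 each) and 4.21 CPM per kb in V6.5. Gata6 and Foxa2 came next, at 7.63 ± 1.96 and 7.01 ± 2.79 CPM per kb in M colonies, 4.82 ± 0.967 and 4.55 ± 0.560 CPM per kb in GC colonies, and 1.43 and 1.07 CPM per kb in V6.5. In M colonies every neighbouring pair in the order except Gata4 and Gata6 overlapped between colonies. In GC colonies the pairs Gata6 and Foxa2, and Sox17 and Sox7, overlapped. Hnf4a was the lowest in both colony groups, at 1.74 ± 0.733 CPM per kb in M colonies and 1.02 ± 0.211 CPM per kb in GC colonies, while Foxq1 was the lowest in V6.5, at 0.415 CPM per kb.

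Ratios between the genes were then followed from library to library. The level of Gata4 per length was 2.94 to 3.43 times that of Gata6 over all 7 libraries. The ratio of Foxq1 to Gata4 per length was 0.150 to 0.177 in M colonies, against 0.0972 to 0.124 in GC colonies and 0.0985 in V6.5. That ratio was thus higher in each M colony than in each GC colony, with a two-sided exact permutation p of 0.1, the smallest that 3 against 3 allows, and 0.7 after adjustment over the 7 ratios. The other 6 ratios to Gata4 overlapped between M and GC colonies. These ratios were chosen after the values were seen.

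Profiles over the 7 libraries were compared by centring each gene's log2 CPM on its own mean. The mean profile of the 8 genes was 0.79, 0.13 and 0.98 in M colonies 1, 2 and 3, 0.19, -0.14 and -0.06 in GC colonies and -1.89 in V6.5. M colonies 1 and 3 were thus high, M colony 2 lay within the range of the GC colonies, and V6.5 was far below. Among 14745 genes ranked by the root mean square distance to that profile over 7 libraries, the closest that are not among the 8 were Pla2g12b (0.04), Bend5 (0.09), Ubash3b (0.10), Tcf23 (0.11) and Flrt3 (0.11 on the log2 scale). Of the 8, Gata4 ranked 2 and Gata6 ranked 4, with distances of 0.05 and 0.09, while Foxq1 ranked 85 and Hnf4a 135, with distances of 0.28 and 0.32. The distance is a description, since the 8 genes set the profile and all genes share the same libraries.

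**Figure D4:**
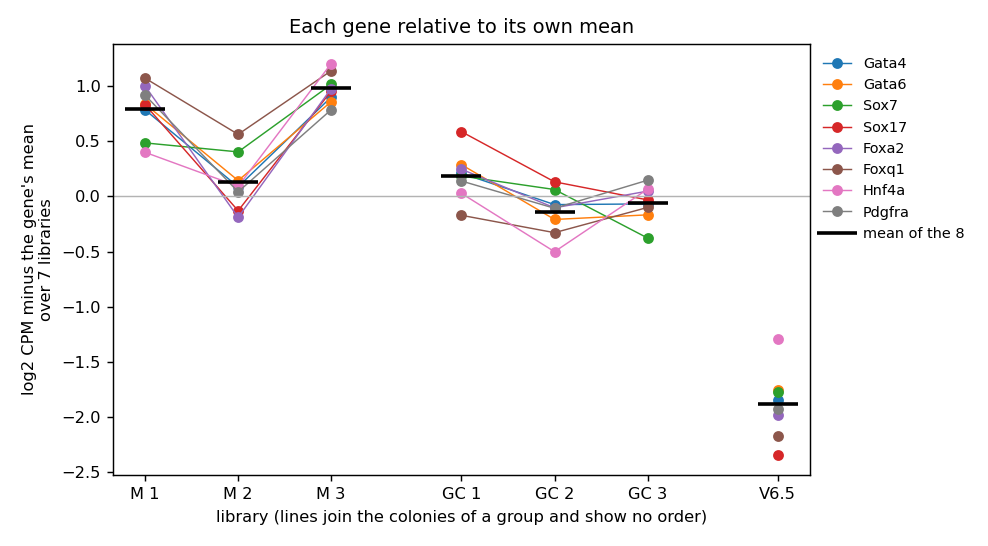
Log2 CPM of each of the 8 genes minus its own mean over the 7 libraries (vertical axis), by library from M colonies through GC colonies to V6.5. Lines join colonies of a group and show no order, and black dashes are the mean of the 8 genes. V6.5 is lowest for all 8 genes, and M colony 2 lies below M colonies 1 and 3.

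Genes of the signalling above the 8, with feedback inhibitors and factors downstream of FGF among them, moved in both directions. Of 18 genes of FGF and PDGF signalling, 8 rose and 1 fell in colonies against V6.5. Of all tested genes, 8.76% were higher and 7.56% lower in colonies against V6.5. Between M and GC colonies those shares were 1.7% and 2.27%. Fgfr2, an FGF receptor of primitive endoderm, had 15.6 ± 1.12 CPM in M colonies, 18.0 ± 1.88 CPM in GC colonies and 4.19 CPM in V6.5, a log2 rise of 2.00 ± 0.19 (edgeR adjusted p = 2.12e-05). Fgf4, the ligand made by epiblast cells, fell by 0.48 (edgeR adjusted p = 7.59e-04), to 220.5 CPM in M colonies and 248 CPM in GC colonies, against 326 CPM in V6.5. Spry2 and Dusp4, feedback inhibitors of the cascade, rose by 0.65 and 0.83 on the log2 scale. Between M and GC colonies, 1 of the 18 rose, Etv4, an ETS factor downstream of FGF (169 ± 15.8 CPM in M colonies, 131 ± 6.28 CPM in GC colonies, edgeR adjusted p = 0.0185), which did not pass without M colony 2, M colony 3 or GC colony 2.

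Among 16 tested genes of 18 for other endoderm regulators, 4 rose and 3 fell in colonies against V6.5. Of all tested genes, 8.76% rose and 7.56% fell. The coregulator Cited1 rose by 2.67 on the log2 scale, and Nr5a2 and Sall4, which are also expressed in pluripotent cells, fell by 0.82 and 0.42. In M against GC colonies, where 1.7% of tested genes rose, 3 of the 16 rose, among them Cited1 and Klf6. Cited1 had 22.6 ± 3.62 CPM in M colonies and 13.5 ± 2.71 CPM in GC colonies (edgeR adjusted p = 0.0172). Klf6, a zinc finger factor, had 222 ± 17.5 CPM in M colonies and 171 ± 18.5 CPM in GC colonies (edgeR adjusted p = 0.0234). The median log2 change of the 16 was 0.09. Neither Cited1 nor Klf6 passed without M colony 3 or without GC colony 2, and Klf6 did not pass without GC colony 1.

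Products of primitive endoderm were mostly higher in colonies than in V6.5. Of 16 genes for its basement membrane and endocytic proteins, 14 rose in colonies against V6.5, where 8.76% of tested genes rose. The median log2 change of the 16 was 2.24, and Nid1 and Nid2 did not pass. The endocytic receptor Lrp2 had 357 ± 89.9 CPM in M colonies, 208 ± 26.2 CPM in GC colonies and 35.1 CPM in V6.5, and rose by 2.96 ± 0.25 on the log2 scale (edgeR adjusted p = 7.78e-06). The collagen IV genes Col4a1 and Col4a2 and the laminin genes Lama1 and Lamb1 rose by 2.53, 2.40, 2.48 and 2.13. In M against GC colonies, where 1.7% of tested genes rose, 5 of the 16 rose, with a median log2 change of 0.44. They were Cubn and Amn, the partners of the cubilin receptor (312 ± 87.6 and 49.5 ± 12.9 CPM in M colonies, 149 ± 22.6 and 23.8 ± 6.53 CPM in GC colonies), Dab2, an endocytic adaptor (240 ± 57.7 CPM in M colonies, 130 ± 17.0 CPM in GC colonies), Amot, a junction protein (133 ± 28.8 CPM in M colonies, 61.2 ± 17.0 CPM in GC colonies), and Lrp2. Their edgeR adjusted p-values ran from 0.00285 to 0.0106. The collagen IV genes did not pass between M and GC colonies. Without M colony 2, 12 of the 16 rose, where 1.82% of tested genes rose. Without M colony 3 or GC colony 2, 3 rose, where 0.489% and 0.47% of tested genes rose.

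Visceral and parietal endoderm are the later layers, and their lists share genes with each other and with the lists above. Between M and GC colonies, 8 of 15 tested visceral endoderm genes of 17 rose, where 1.7% of tested genes rose. Cubn, Amn and Cited1 were among those that rose in this list, and the median log2 change of the 15 was 0.84. The Wnt inhibitor Dkk1 had 7.22 ± 1.85 CPM in M colonies and 2.60 ± 0.496 CPM in GC colonies (edgeR adjusted p = 0.00326). Apoe, an apolipoprotein, had 558 ± 32.9 CPM in M colonies and 425 ± 26.6 CPM in GC colonies (edgeR adjusted p = 0.00481), with 523 CPM in V6.5. Without M colony 3 or without GC colony 2, 3 of the 15 rose, where 0.489% and 0.47% of tested genes rose. Among 10 parietal endoderm genes 1 rose, the proteoglycan Srgn (135 ± 34.3 CPM in M colonies, 75.4 ± 11.5 CPM in GC colonies, edgeR adjusted p = 0.0106). Without M colony 2 that count was 5, where 1.82% of tested genes rose. Srgn did not pass without M colony 3 or GC colony 2. In colonies against V6.5, 10 of 16 tested visceral genes and 9 of 10 parietal genes rose, where 8.76% of tested genes rose. Srgn rose by 2.75, the activin antagonist gene Fst by 1.78 and the protease inhibitor gene Spink1 by 2.19 on the log2 scale, and Apoe did not pass.

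**Figure D5:**
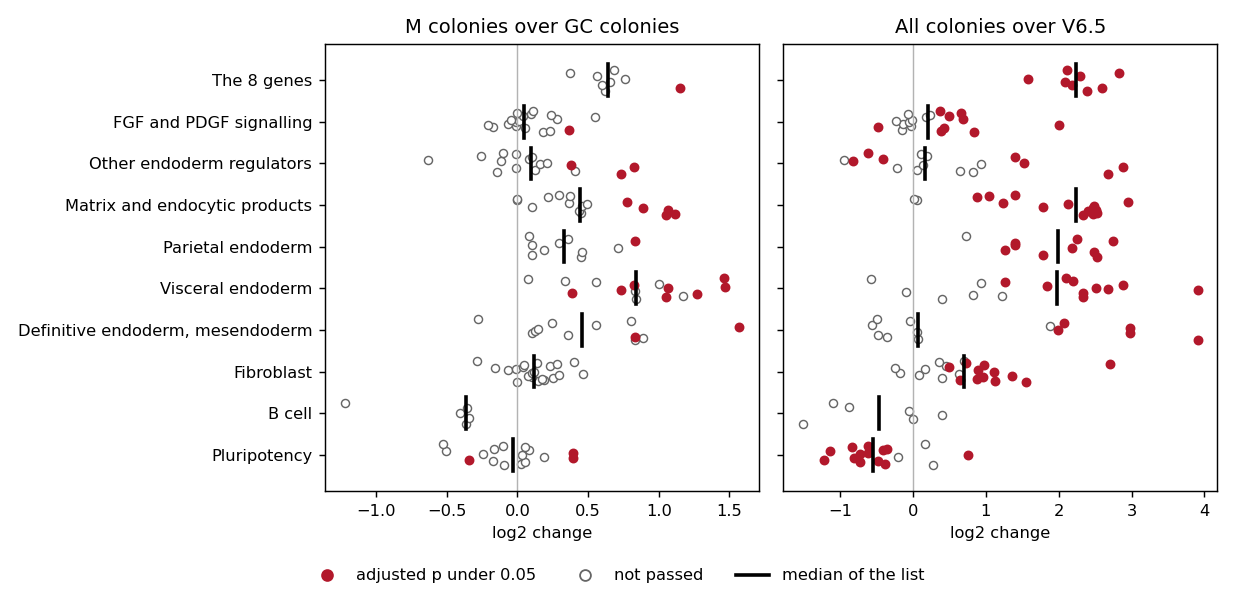
Log2 change of each tested gene by list, for M over GC colonies and for all colonies over V6.5. Filled points have an edgeR adjusted p under 0.05, and black bars are list medians. Against V6.5 the medians of the 8 genes and of the primitive endoderm products lie at 2.23 and 2.24, and the fibroblast median lies at 0.70.

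Foxa2 and Sox17 also act in definitive endoderm of the embryo, so genes of definitive endoderm and mesoderm were listed, of which Cer1 is also in the visceral list and Hhex among the other endoderm regulators. Of 12 tested between M and GC colonies, 2 rose, where 1.7% of all tested genes rose. Eomes, a T-box factor, had 18.4 ± 2.09 CPM in M colonies, 10.3 ± 0.375 CPM in GC colonies and 17.7 CPM in V6.5 (edgeR adjusted p = 0.00193, M against GC). In GC colonies against V6.5, Eomes fell by 0.77 ± 0.16 on the log2 scale (edgeR adjusted p = 0.00635). Lhx1, a LIM homeobox factor, had 9.13 ± 2.48 CPM in M colonies, 3.07 ± 1.60 CPM in GC colonies and 0.670 CPM in V6.5 (edgeR adjusted p = 0.0142, M against GC). Lhx1 did not pass without M colony 1, M colony 3 or GC colony 1. Against V6.5, 5 of 13 rose in colonies, where 8.76% of tested genes rose. Of the 5, the bHLH factor Hand1, the secreted antagonist Cer1 and the VEGF receptor Kdr rose by 2.97, 3.91 and 1.99 on the log2 scale.

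Fibroblast genes bear on Pdgfra and on the feeder layer the colonies grew on. Of 21 tested fibroblast genes of 24, 12 rose in colonies against V6.5, where 8.76% of tested genes rose. The median log2 change of the 21 was 0.70. The summed level of all 24 was 1328 to 1710 CPM in M colonies, 1349 to 1476 CPM in GC colonies and 796 CPM in V6.5. Acta2, an actin of contractile cells, rose by 1.55 ± 0.13 on the log2 scale (edgeR adjusted p = 8.11e-06), as did Col5a2 by 1.35 and Lox by 0.89, and Col1a1 had 354 ± 49.7 CPM in M colonies, 311 ± 16.9 CPM in GC colonies and 212 CPM in V6.5. Of the 24, Lum, Dpt and S100a4 were at or below 0.19 CPM in every library. The part of fibroblast RNA in the rise of the 8 genes, and of the basement membrane and endocytic products, over V6.5 was not tested. Between M and GC colonies, edgeR, DESeq2 and limma-voom each called 0 of the 21, and 2 had an unadjusted p under 0.05 by edgeR. The fibroblast sum was 1710, 1484 and 1328 CPM in M colonies 1, 2 and 3. That of the 8 genes was 280.0, 171 and 300.1 CPM in the same colonies. How the sums relate was not tested.

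B cell genes of the source cells were low, with a summed level of 6.63 to 7.89 CPM in M colonies, 9.04 to 10.7 CPM in GC colonies and 9.85 CPM in V6.5. Blk was at 0 in all libraries, and Cd74 and Cd79b were the most abundant, at 3.10 ± 0.493 and 1.68 ± 0.192 CPM in M colonies, 3.92 ± 0.693 and 2.15 ± 0.303 CPM in GC colonies, and 2.65 and 3.48 CPM in V6.5. Of 5 tested between M and GC colonies, edgeR, DESeq2 and limma-voom each called 0, and 0 had an unadjusted p under 0.05 by edgeR. Pluripotency genes checked the labelled cell type and were abundant throughout, with a summed level of 5363 to 5791 CPM in M colonies, 5505 to 5719 CPM in GC colonies and 8010 CPM in V6.5. Of 16, 12 fell and 1 rose in colonies against V6.5, where 7.56% of tested genes fell and 8.76% rose. Dppa5a had 1292 ± 41.1 CPM in M colonies, 1264 ± 99.8 CPM in GC colonies and 1674 CPM in V6.5. Klf2, Klf4 and Pou5f1 fell by 1.23, 0.81 and 0.62 on the log2 scale, and the RNA binding protein gene Lin28a rose by 0.75. Nanog, which opposes Gata6, had 410 ± 41.4 CPM in M colonies, 484 ± 6.00 CPM in GC colonies and 740 CPM in V6.5, a fall of 0.73 in colonies against V6.5 (edgeR adjusted p = 7.54e-05) and a log2 difference of -0.24 between M and GC colonies that did not pass (edgeR adjusted p = 0.0768). Without M colony 2, Nanog passed and was lower in M colonies, as it was by DESeq2 and with colony number as a replicate block. Nanog did not pass with any other single colony left out. Between M and GC colonies 2 of the 16 rose, Pou5f1 and Klf4, and Klf2 fell, where 1.7% of tested genes rose and 2.27% fell. Klf2 did not pass without M colony 2, M colony 3, GC colony 1 or GC colony 2, and Klf4 did not pass without GC colony 2. RNA of any reprogramming transgene cannot be told apart here from that of the cellular gene.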

How the data were processed

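Poly-A RNA of 7 cultures was measured by RNA-seq. The authors deposited raw, whole-number counts for each Ensembl gene, not normalized. The submitters' processing notes name STAR 2.7.10a, featureCounts 2.0.6, DESeq2 and the build mm10 (GRCm38). The labels disagree on the library, giving a non-stranded preparation in the design text and a directional kit in the sample protocol. Among counts of 1 to 49, 68.5% to 72.2% were even by library, against 49.5% to 50.9% at 1000 or more. Whether mates of a pair were counted singly was not tested, and counts may overstate fragments.

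Symbols and positions came from GENCODE M21, which matched 54809 of 54838 genes. Groups came from the sample titles. M was compared with GC in 6 libraries (18166 genes after filterByExpr), and colonies with V6.5 in 7 (20502 genes), with the two-sided quasi-likelihood test of edgeR 4.0.16 in R 4.3.3, TMM and Benjamini-Hochberg adjustment over all tested genes at 0.05. The fits were also run on simulated counts with dispersions estimated from these data, which cannot show whether V6.5 varies like the colonies. An SE is the log2 change over the square root of F. Other settings were DESeq2 1.42.0, limma 3.58.1 with voom, DESeq2's size factors, no filter, left-out libraries and a replicate block. Members and lists were chosen with earlier results of these data known. Named from each list and comparison were up to 4 genes past the threshold with the smallest p, and the 2 most abundant fibroblast, B cell and pluripotency genes. Nid1, Nid2, Hhex, Lum, Dpt, S100a4 and Blk were named after their values were seen, as was the choice of Lrp2 between M and GC colonies. A gene that this rule names is not reported here.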

Additional observations from a re-analysis of the deposited data

How the results depend on the processing

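Between M and GC colonies, 1 of the 8 genes passed with edgeR, with DESeq2's size factors, with limma-voom and with counts halved. Without a filter on low counts 7 passed, among 1318 genes in all. That fit kept every gene with a count, so more genes were tested than the 18166 of the main fit. With DESeq2's own test 4 passed (Foxq1, Sox7, Hnf4a and Pdgfra), among 1110 genes against 721. By DESeq2 2.98% of 18166 tested genes were higher in M colonies, against 1.7% by edgeR. The cause of the larger counts was not tested. Leaving out 1 library gave 1 to 6 of the 8 and 244 to 814 genes in all, and leaving out M colonies 2 and 3 together gave 5 of the 8 and 373 genes. With 1 library left out, 0.47% to 2.23% of tested genes were higher in M colonies. Sox17 passed in 0 of 13 alternatives, and no value reversed. Against V6.5, all 8 passed in each alternative for M colonies. For all colonies 8 passed except by limma-voom, where Hnf4a did not (adjusted p = 0.0809), and for GC colonies 6 to 8 passed, where limma-voom lost Foxa2 (adjusted p = 0.0680).

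Deviations of colonies from their group means correlated at 0.073, 0.075 and 0.164 for the same number in both groups. For different numbers the correlations were lower, at -0.135 to 0.062. The labels name no pairing, and whether the numbers pair the samples was not tested. With the number as a replicate block, 5 of the 8 genes passed between M and GC colonies (Gata4, Gata6, Foxq1, Hnf4a and Pdgfra), among 963 genes. In that fit 2.48% of 18166 tested genes were higher in M colonies.

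Each of the 8 genes had at least 60 counts in every library, and the spread rests on 3 colonies a group and 1 V6.5 library. Donor and source cell cannot be told apart.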

Other observations

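Neighbouring genes were counted in windows of 250 kb to each side of the 8 genes, an extent chosen after the data were seen. Of 27 tested protein-coding neighbours, 1 rose and 1 fell between M and GC colonies, near the 1.7% higher and 2.27% lower of all tested genes. Mib1, an E3 ubiquitin ligase of Notch signalling 233 kb from Gata6, had 106 ± 8.85 CPM in M colonies and 81.4 ± 7.11 CPM in GC colonies (edgeR adjusted p = 0.0232). Gdap1l1, 51.5 kb from Hnf4a, had 2.67 ± 0.129 CPM in M colonies and 4.97 ± 0.525 CPM in GC colonies (edgeR adjusted p = 0.0200), the opposite direction to Hnf4a.

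Around Foxq1, the forkhead gene Foxf2 (64.8 kb away) had 1.38, 1.47 and 1.52 CPM in M colonies 1, 2 and 3, against 0.860, 0.914 and 1.13 CPM in GC colonies and 0.268 CPM in V6.5. Its groups did not overlap, but the log2 difference of 0.58 ± 0.31 between M and GC colonies did not pass (edgeR adjusted p = 0.380). In colonies against V6.5, 4 of 28 tested neighbours rose and 2 fell, where 8.76% of all tested genes were higher and 7.56% lower. Foxf2 rose by 2.13 ± 0.54 on the log2 scale (edgeR adjusted p = 0.0164). The others that rose were Jph2 and Ccn5 near Hnf4a, by 1.33 and 2.16 (edgeR adjusted p = 7.22e-04 and 0.00763), and Fdft1 near Gata4, by 0.33 (edgeR adjusted p = 0.0151). Tdh near Gata4 and Tox2 near Hnf4a fell. Neil2, 5.07 kb from Gata4, had 14.3 ± 1.99 CPM in M colonies, 18.4 ± 1.60 CPM in GC colonies and 15.8 CPM in V6.5, and did not pass in either comparison.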
